A study of Mus musculus with 6 samples.

Results

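The genes described here are 8 members of cyclic nucleotide signalling, 6 phosphodiesterases (Pde5a, Pde10a, Pde2a, Pde3a, Pde4b and Pde4d) and the 2 cGMP-dependent protein kinases (Prkg1 and Prkg2), chosen by gene symbol from a table of 13730 genes. All 8 were in the table and all 8 passed the filter on low counts. They were measured by RNA sequencing in 6 mouse tumors, 3 per group. The tumors grew from C0321, a single mesenchymal, claudin-low clone of triple-negative breast cancer (TNBC) from a conditional Lfng-/- mouse on the FVB background, injected with Matrigel into the mammary fat pad of female FVB mice 6 to 10 weeks old. Both groups therefore carried the same tumor line in the same immunocompetent strain. One group received sulindac sulfide (SS) by mouth at 60 mg/kg each day for 14 days, and the other is labelled Control. The sample labels spell the drug "Sulindac Sulfate", whereas the study names the sulfide, and the control is saline in the series description and vehicle in the study.

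Cyclic GMP is made by guanylyl cyclases that respond to nitric oxide or natriuretic peptides, activates the kinases PRKG1 and PRKG2, and is broken down by phosphodiesterases. PDE5A, the target of sildenafil, hydrolyses cGMP only. PDE2A and PDE10A hydrolyse both cGMP and cAMP, and PDE2A is stimulated by cGMP. PDE3A mainly hydrolyses cAMP and is inhibited by cGMP, so cGMP can raise cAMP through it. PDE4B and PDE4D hydrolyse cAMP only, and the name "cyclic GMP phosphodiesterases" therefore does not cover these members. Sulindac sulfide is known as a gamma-secretase modulator, a cyclooxygenase inhibitor and an inhibitor of cGMP hydrolysis by PDE5, and the study raises inhibition of Wnt signalling through PDE5 in its discussion. The comparison asks whether the transcripts of these enzymes differed after 14 days of the drug. RNA levels do not measure enzyme activity or cGMP.

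Totals ranged from 20486405 and 24441553 counts in Control tumors 2 and 3 to 8468948 counts in SS tumor 2, and a floor of 3 counts corresponded to 0.123 to 0.354 CPM. CPM here are counts relative to the library size, which was scaled by TMM, with factors between 0.981 and 1.03. Intervals and floors from counts cover counting error only. Lfng, deleted in the mice that gave the line, lay at 4.65 to 6.40 CPM across the tumors, and the sum of Esr1, Pgr and Erbb2, the receptors that define TNBC by their low protein level, was between 23.4 and 30.5 CPM.

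Of the 8 members, 5 were higher and 3 lower in SS tumors by the sign of the log2 fold change, beside 49.8% higher and 50.2% lower among all genes. Under the quasi-likelihood test of edgeR, 0 of 8 members passed after adjustment by Benjamini-Hochberg over 10902 genes. No other gene passed either (0 genes, 0%), the smallest adjusted p being 0.616. Before adjustment, 1 member passed 0.05, Pde4d, higher in SS tumors, beside 693 of all genes (6.36%), of which 348 were higher (3.19%) and 345 lower (3.16%). DESeq2 passed 35 genes after adjustment. It had 0 members at an unadjusted p under 0.05, and it gave no adjusted p for 4 of the 8 members (Pde5a, Pde10a, Pde3a and Prkg2). The groups did not overlap for 1 member, again Pde4d, beside 12.9% of all genes. The median log2 fold change over the members was 0.03, beside -0.0014 over all genes tested. The members' counts were thus close to the shares in the whole table.

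**Figure D1:**
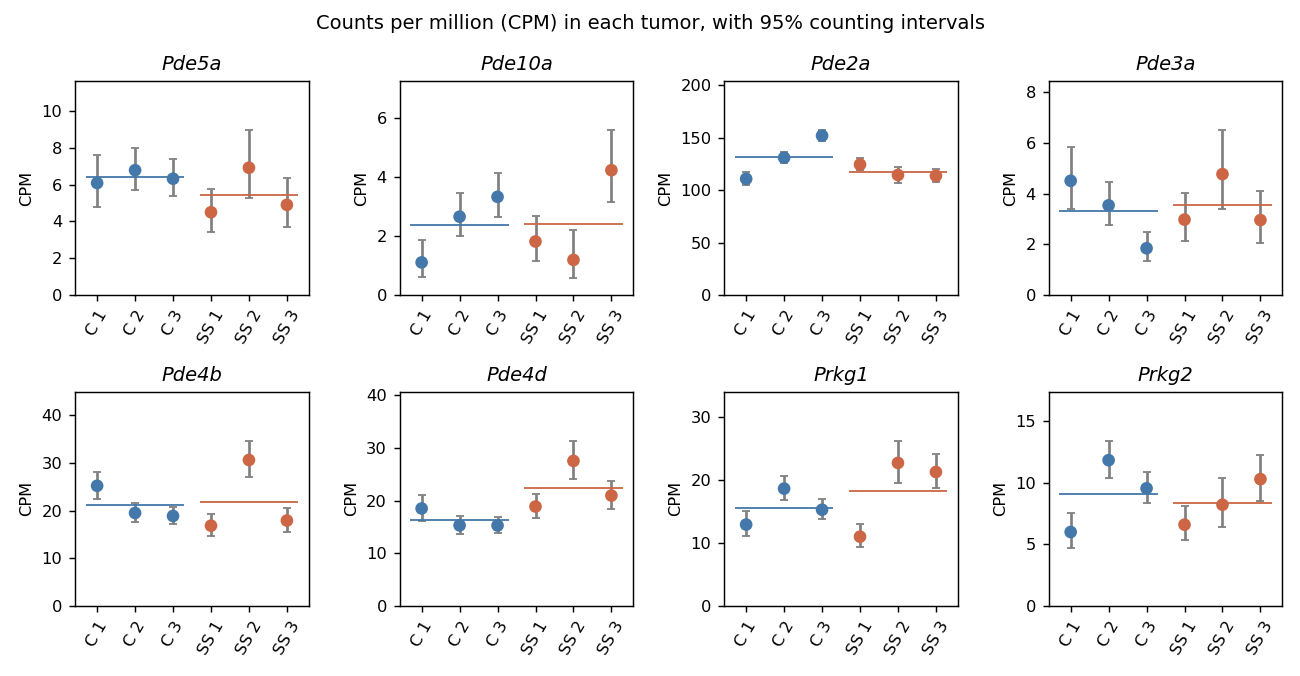
CPM of each of the 8 members in each tumor (y axes, linear, from 0), with Control tumors (C) and SS tumors along the x axis. Points are single tumors, vertical bars 95% counting intervals and horizontal lines group means. Pde4d is the only panel in which every SS point, from 18.9 to 27.5 CPM, lies above every Control point, from 15.3 to 18.5 CPM.

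**Figure D2:**
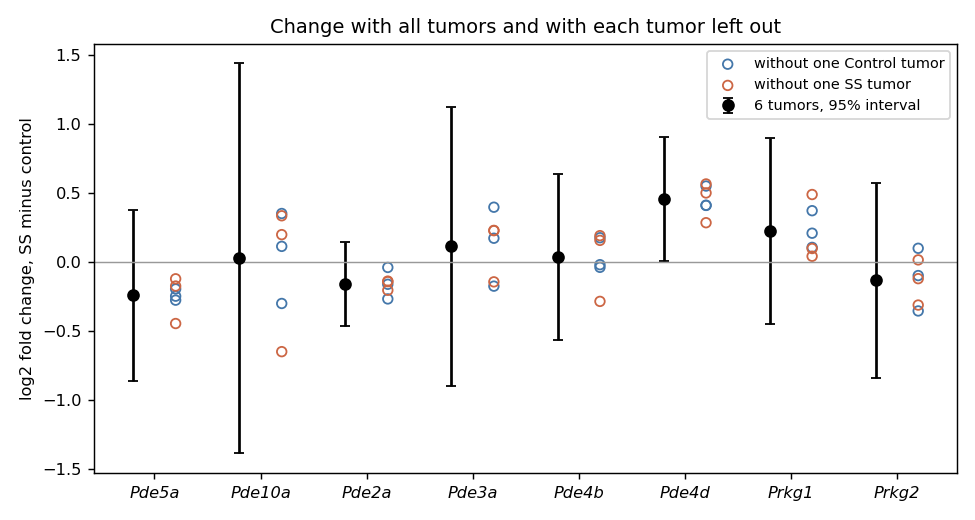
Log2 fold change of each member, SS minus Control (y axis), in black with its 95% interval from edgeR's quasi-likelihood fit of all 6 tumors, and as open circles after each tumor in turn was dropped. The interval of Pde4d, 0.0072 to 0.91, lies just above 0 and those of the other 7 members cross it, and the circles of Pde10a, Pde3a, Pde4b and Prkg2 fall on both sides of 0.

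Levels between genes were compared per transcript length, as CPM per kilobase (kb) of the most abundant transcript, averaged over the 6 tumors. Pde2a stood first at 30.4 CPM per kb, with tumors between 27.0 and 37.1. Pde4b followed at 7.80 and Pde4d at 7.60 CPM per kb, and their ranges, 6.11 to 11.1 and 5.98 to 10.8, overlapped. The kinases came next, Prkg1 at 2.43 CPM per kb (1.57 to 3.25) and Prkg2 at 1.76 CPM per kb (1.21 to 2.39), again with overlapping ranges. Pde5a, the enzyme specific for cGMP, was at 0.853 CPM per kb (0.649 to 0.997), below every tumor's value of the kinases. Pde10a at 0.307 and Pde3a at 0.279 CPM per kb were lowest, and their ranges, 0.142 to 0.544 and 0.150 to 0.388, overlapped. Thus 4 steps in this order exceeded the spread between tumors, Pde2a over Pde4b by 3.90 times, Pde4d over Prkg1 by 3.13 times, Prkg2 over Pde5a by 2.06 times and Pde5a over Pde10a by 2.78 times.

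**Figure D3:**
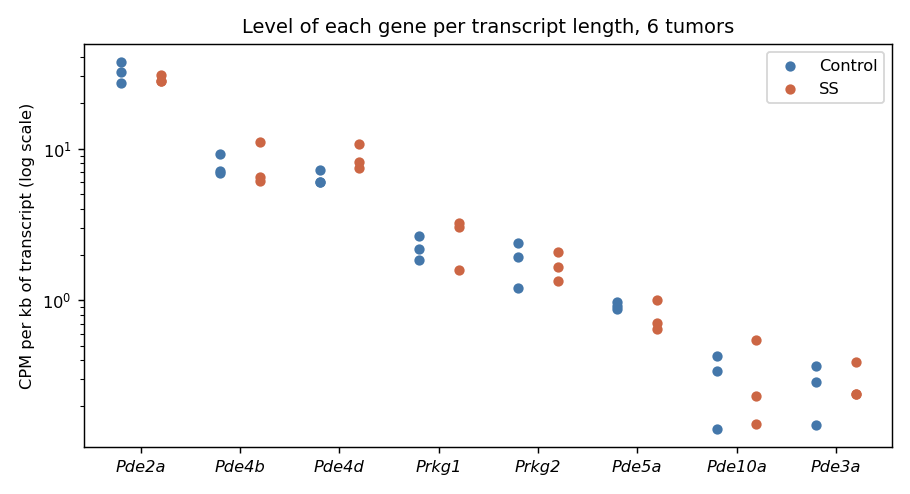
CPM per kb of transcript (logarithmic axis) of the 8 members, 1 point per tumor, Control and SS in different colors. Pde2a lies above all other members in every tumor, and the points of Pde4b and Pde4d, of Prkg1 and Prkg2, and of Pde10a and Pde3a share their ranges.

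Pde2a also took the largest share of counts among the 18 phosphodiesterase genes in the table. Its share was 31.8%, 37.9% and 38.7% across Control tumors 1, 2 and 3, against 32.6%, 31.5% and 32.9% across SS tumors 1, 2 and 3. Pde7a, a cAMP-specific enzyme outside the 8 members, held 11.4% to 18.4%. Pde5a held 1.18% to 1.96% and Pde10a 0.318% to 1.22%. These shares are not corrected for length.

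Pde5a, on the plus strand of chromosome 3 at chr3:122729158-122859374 (GRCm38, as are all positions), encodes the phosphodiesterase that hydrolyses cGMP only. The 250 bases before its annotated start are shown because Pde5a is the enzyme the drug is known to inhibit. Here and below the bases are from RefSeq on GRCm38.p6, written in the direction of transcription, with capitals for a GC box (GGGCGG, or CCGCCC on the other strand), the motif bound by Sp1-family factors.

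Pde5a: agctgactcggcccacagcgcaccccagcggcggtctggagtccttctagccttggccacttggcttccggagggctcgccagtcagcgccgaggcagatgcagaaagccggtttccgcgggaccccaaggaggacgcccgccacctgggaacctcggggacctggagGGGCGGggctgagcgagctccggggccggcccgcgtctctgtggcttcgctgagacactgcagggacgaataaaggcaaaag

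This stretch held 68.4% G and C and 1 GC box. A GC box stands in 33.0% of 32536 mouse promoters searched over the same length. A match of these letters is not evidence of binding.

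Pde5a was at 6.09, 6.78 and 6.32 CPM in Control tumors 1, 2 and 3 and at 4.50, 6.92 and 4.90 CPM in SS tumors 1, 2 and 3. SS tumors 1 and 3 lay below all Control tumors and SS tumor 2 lay above them, so the groups overlapped. The means were 6.40 ± 0.354 CPM and 5.44 ± 1.29 CPM (SD, n = 3 each). SS minus Control, the log2 fold change of Pde5a was -0.24 (SE 0.27, 95% interval -0.86 to 0.38, adjusted p 0.916 in edgeR). Counts behind these values were between 58 and 154 per tumor. When each tumor was left out in turn, the log2 fold change stayed between -0.45 and -0.12.

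Pde2a, at chr7:101421691-101512829 on the plus strand, encodes the phosphodiesterase of both nucleotides that cGMP stimulates through its GAF domain. It was at 110.9, 131.0 and 152.0 CPM in Control tumors and at 124.5, 114.5 and 113.8 CPM in SS tumors. The 3 SS tumors lay inside the range of the Control tumors. The means were 131 ± 20.6 CPM and 118 ± 5.97 CPM (SD, n = 3 each), and the log2 fold change was -0.16 (SE 0.13, 95% interval -0.46 to 0.15, adjusted p 0.884 in edgeR). With 960 to 3704 counts per tumor, Pde2a was the most deeply counted member and its interval was the narrowest. Its log2 fold change was -0.27 without Control tumor 1 and -0.04 without Control tumor 3.

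Pde10a, at chr17:8526801-8986648 on the plus strand, encodes a phosphodiesterase of both nucleotides best known from striatal neurons. Its values were 1.11, 2.65 and 3.32 CPM in Control tumors and 1.81, 1.19 and 4.23 CPM in SS tumors. Both groups ran from under 2 to over 3 CPM, and the highest and lowest tumors were in different groups. Its log2 fold change was 0.03 (SE 0.61, 95% interval -1.39 to 1.44, adjusted p 0.994 in edgeR). It rested on 10 to 81 counts per tumor. Control tumors varied with a CV of 48.2%, beside counting CVs of 11.1% to 31.6% per tumor, and the interval held both a halving and a doubling. Without SS tumor 3 the log2 fold change was -0.65, and without Control tumor 1 it was -0.30.

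Pde3a, at chr6:141249269-141499351 on the plus strand, encodes a phosphodiesterase found in heart, platelets and vascular smooth muscle. It was at 4.51, 3.54 and 1.85 CPM in Control tumors and 2.98, 4.77 and 2.96 CPM in SS tumors. The groups overlapped, with Control tumor 3 lowest and SS tumor 2 highest. Its log2 fold change was 0.11 (SE 0.44, 95% interval -0.90 to 1.13, adjusted p 0.970 in edgeR), on 35 to 72 counts per tumor. It was -0.17 without Control tumor 3 and -0.14 without SS tumor 2.

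Pde4b, at chr4:102570060-102607262 on the plus strand, encodes a cAMP-specific phosphodiesterase prominent in leukocytes. Its values were 25.2, 19.5 and 18.9 CPM in Control tumors and 16.8, 30.6 and 17.9 CPM in SS tumors. SS tumor 2 was highest and the other two SS tumors were lowest, which left the means close, at 21.2 ± 3.49 CPM and 21.8 ± 7.68 CPM (SD, n = 3 each). Its log2 fold change was 0.04 (SE 0.26, 95% interval -0.57 to 0.64, adjusted p 0.982 in edgeR). Without SS tumor 2 it was -0.29. Summed markers of macrophages and leukocytes were at 530.5 to 711.7 CPM in Control tumors and 553.8 to 713.7 CPM in SS tumors.

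Pde4d, at chr13:108654177-109955969 on the plus strand, encodes another cAMP-specific phosphodiesterase, known from heart and airway smooth muscle. It was at 18.5, 15.3 and 15.3 CPM in Control tumors and at 18.9, 27.5 and 21.0 CPM in SS tumors. Every SS tumor lay above every Control tumor, though SS tumor 1 exceeded Control tumor 1 by little. The means were 16.4 ± 1.86 CPM and 22.5 ± 4.53 CPM (SD, n = 3 each). The log2 fold change was 0.46 (SE 0.19, 95% interval 0.0072 to 0.91; unadjusted p 0.0472, adjusted p 0.771 in edgeR). The difference did not pass adjustment. Of all genes, 6.51% had SS tumors above Control tumors without overlap. The unadjusted p of edgeR was 0.121 without Control tumor 2, 0.117 without Control tumor 3, 0.167 without SS tumor 2 and 0.0643 without SS tumor 3. The log2 fold change without SS tumor 2 was 0.29, and over every tumor left out in turn it stayed above 0, up to 0.57. Over all alternatives its adjusted p was between 0.613 and 0.989.

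Prkg1, at chr19:30564487-31765033 on the minus strand, encodes the kinase that carries most cGMP effects in smooth muscle and platelets. It was at 12.9, 18.6 and 15.2 CPM in Control tumors and at 11.0, 22.7 and 21.2 CPM in SS tumors. SS tumor 1 was lowest of all and SS tumors 2 and 3 were highest, so the SS values enclosed the Control values. The means were 15.6 ± 2.86 CPM and 18.3 ± 6.38 CPM (SD, n = 3 each), and the log2 fold change was 0.23 (SE 0.29, 95% interval -0.45 to 0.90, adjusted p 0.923 in edgeR). Leaving out each tumor gave 0.04 to 0.49. Summed markers of skeletal muscle, all 8 of which were in the table, had the same lowest and 2 highest tumors, at 5495, 11020 and 1119 CPM in Control tumors and 330.6, 23030 and 12340 CPM in SS tumors. Summed markers of mural cells, which include vascular smooth muscle, were at 1093, 1866 and 1373 CPM in Control tumors and 996.8, 2127 and 1752 CPM in SS tumors. They too were lowest in SS tumor 1 and highest in SS tumor 2, an order that the sum did not keep without Des, desmin, which skeletal muscle also expresses. Without it, a choice made after the values were seen, the sums were 866.2, 1095 and 949.4 CPM in Control tumors and 942.3, 1065 and 835.4 CPM in SS tumors, of which Acta2, smooth muscle actin, made up most, at 625.3 to 842.7 CPM. Of the 12 mural markers, Des, Pdgfrb, Kcnj8 and Abcc9 were lowest in SS tumor 1. Cspg4 and Lmod1 were highest there, and each of the rest was lowest in another tumor. Summed fibroblast markers were at 10460, 15150 and 11790 CPM in Control tumors and 7378, 15190 and 12320 CPM in SS tumors. They were also lowest in SS tumor 1 and highest, by little, in SS tumor 2. Col1a1, a collagen chain, made up most of these sums and was itself highest in Control tumor 2, at 14510 against 14230 CPM in SS tumor 2. Of the other fibroblast markers, Dcn and Col3a1 were highest in SS tumor 2, and Pdgfra, Dpt and Lum in Control tumor 1. The part of skeletal muscle, mural cells or fibroblasts in the Prkg1 values was not tested. In bulk tumor RNA, fewer cells of a type and less RNA per cell cannot be told apart.

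Prkg2, at chr5:98929773-99037079 on the minus strand, encodes the membrane-anchored kinase known from intestine and cartilage. It was at 6.01, 11.9 and 9.56 CPM in Control tumors and at 6.60, 8.23 and 10.3 CPM in SS tumors. All SS tumors lay inside the Control range. The log2 fold change was -0.13 (SE 0.30, 95% interval -0.84 to 0.58, adjusted p 0.947 in edgeR), and it was 0.10 without Control tumor 2 and 0.02 without SS tumor 1.

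The table held 15 transcripts of the 8 members, starting at 13 sites, and 5 members had 1 transcript each. Pde2a, Prkg1 and Pde10a had several. Their counts were split between transcripts by the authors' estimation, so shares of a gene rest on that model as well as on reads. The sums by start site were added after the values had been seen.

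Pde2a had 3 start sites, a distal one shared by 2 transcripts, a middle one, and a proximal one shared by 2 transcripts. The stretches before them are shown because the tumors used these starts unequally.

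Pde2a distal, chr7:101421441-101421690: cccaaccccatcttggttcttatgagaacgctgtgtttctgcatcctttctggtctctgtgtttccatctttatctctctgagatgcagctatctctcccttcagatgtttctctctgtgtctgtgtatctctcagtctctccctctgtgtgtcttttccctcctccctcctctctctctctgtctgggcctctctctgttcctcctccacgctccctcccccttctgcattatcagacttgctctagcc
Pde2a middle, chr7:101450270-101450519: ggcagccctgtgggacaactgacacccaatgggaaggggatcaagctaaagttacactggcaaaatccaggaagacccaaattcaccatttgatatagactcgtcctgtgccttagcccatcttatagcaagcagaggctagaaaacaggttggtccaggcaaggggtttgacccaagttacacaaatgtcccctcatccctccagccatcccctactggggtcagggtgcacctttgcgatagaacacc
Pde2a proximal, chr7:101451002-101451251: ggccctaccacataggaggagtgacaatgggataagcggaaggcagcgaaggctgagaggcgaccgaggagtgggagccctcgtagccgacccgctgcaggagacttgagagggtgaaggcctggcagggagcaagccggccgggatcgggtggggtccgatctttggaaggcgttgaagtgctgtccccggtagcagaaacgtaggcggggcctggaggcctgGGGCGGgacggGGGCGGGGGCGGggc

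The proximal stretch held 68.0% G and C and 3 GC boxes, all within 26 bases of the start. The distal and middle stretches held 50.8% and 51.6% G and C and no GC box in these 250 bases. The proximal start carried 82.4%, 77.0% and 75.8% of Pde2a counts across the Control tumors, against 79.6%, 87.3% and 83.7% across the SS tumors. It was the main start in all 6 tumors. The difference, SS minus Control, was 5.12 percentage points with overlap between groups (p = 0.2 by two-sided exact permutation, adjusted 0.8 over 8 start sites). The middle start carried 12.6%, 12.0% and 9.36% across the Control tumors, against 10.1%, 3.46% and 7.61% across the SS tumors, a difference of -4.23 points (exact permutation p = 0.2, adjusted 0.8). The distal start carried 4.99% to 14.8% in Control tumors and 8.68% to 10.3% in SS tumors (exact permutation p = 0.7). With 3 tumors against 3 the smallest p this test can give is 0.1.

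Prkg1 is transcribed from 2 promoters that give proteins with different amino-terminal ends, the alpha and beta forms. The stretches before both annotated starts are shown because nearly all counts lay on 1 of them.

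Prkg1 upstream, chr19:31765034-31765283: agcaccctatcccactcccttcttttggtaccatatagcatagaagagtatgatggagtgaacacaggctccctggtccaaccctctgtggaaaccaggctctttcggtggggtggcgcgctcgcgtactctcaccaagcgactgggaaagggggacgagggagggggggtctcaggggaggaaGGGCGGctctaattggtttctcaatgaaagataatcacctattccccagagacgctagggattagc
Prkg1 downstream, chr19:31664371-31664620: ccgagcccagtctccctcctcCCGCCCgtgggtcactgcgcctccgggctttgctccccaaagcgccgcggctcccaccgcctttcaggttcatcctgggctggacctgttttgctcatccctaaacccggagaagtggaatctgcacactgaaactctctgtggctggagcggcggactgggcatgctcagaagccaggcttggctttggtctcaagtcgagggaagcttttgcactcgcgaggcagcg

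Both are on the minus strand, and each held 1 GC box, at 55.2% G and C upstream and 62.8% downstream. The upstream start carried 95.9%, 98.7% and 92.4% of Prkg1 counts across the Control tumors, against 94.1%, 98.5% and 95.3% across the SS tumors. The downstream start carried between 1.28% and 7.65%. The groups overlapped (exact permutation p = 1.0). Thus the same start led in every tumor while the level of the gene varied between tumors.

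Pde10a counts were assigned wholly to the transcript that starts at position 8801745 in Control tumors 1 and 2 and in SS tumors 2 and 3, but its share was 55.2% in Control tumor 3 and 23.7% in SS tumor 1. These shares rest on 10 to 81 counts per tumor, and 1 tumor of each group departed from the rest. Their difference was -10.5 percentage points (exact permutation p = 0.9), but 14.9 points without SS tumor 1 and -25.4 points without Control tumor 3.

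A cyclic AMP response element (TGACGTCA), a TATA box (TATAAA) or a CArG box, the site bound by serum response factor, was not found in the 250 bases before any of the 10 start sites with a sequence, which belong to 6 of the members. These motifs stand in 1.56%, 12.3% and 1.48% of all promoters searched, on either strand. Pde3a and Prkg2 had no entry, nor did the Pde10a start at position 8526801.

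**Figure D4:**
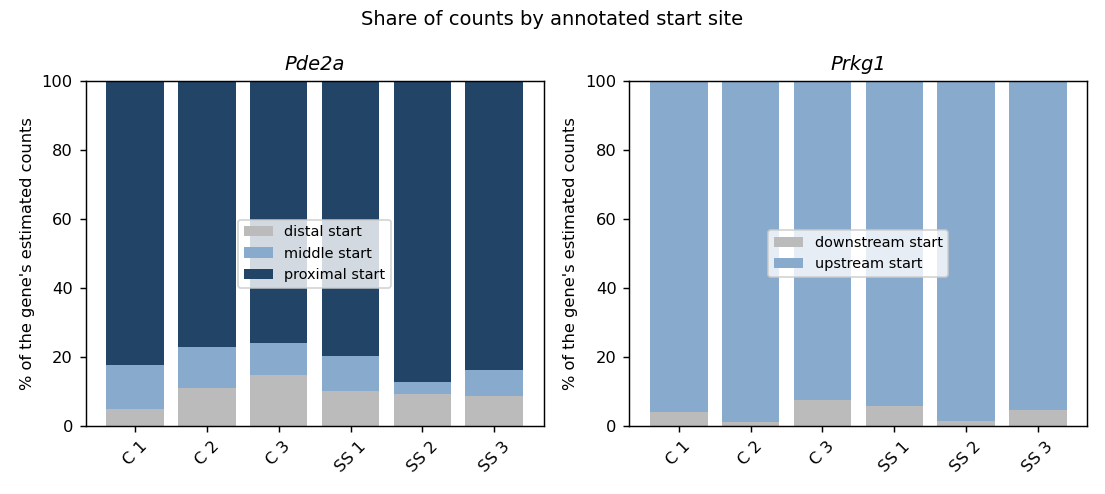
Share of a gene's estimated counts (%, y axis, stacked to 100) by annotated start site of Pde2a and Prkg1 in each of the 6 tumors (x axis). The proximal start of Pde2a carries 75.8% to 87.3% and the upstream start of Prkg1 92.4% to 98.7%.

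Ratios between members within a tumor do not depend on library scaling, and were added after the values had been seen. Of 28 pairs, 2 did not overlap between the groups, and both had Pde4d as denominator. The ratio of Pde5a to Pde4d was 0.329, 0.444 and 0.414 across the Control tumors, against 0.238, 0.251 and 0.234 across the SS tumors, a log2 difference of -0.70 (p = 0.1 by two-sided exact permutation, adjusted 1.0 over 28 pairs). The ratio of Pde4b to Pde4d was 1.36, 1.28 and 1.24 across the Control tumors, against 0.892, 1.11 and 0.855 across the SS tumors, a log2 difference of -0.45 (exact permutation p = 0.1, adjusted 1.0). Pde4b thus exceeded Pde4d in counts in every Control tumor and in SS tumor 2. The ratio of Prkg1 to Prkg2 was 2.14, 1.57 and 1.59 across the Control tumors, against 1.66, 2.75 and 2.06 across the SS tumors, with overlap (exact permutation p = 0.4).

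The rest of the pathway was read from 8 lists of 107 genes, of which 83 were in the table and 71 were tested. Of these 71 genes, 35 were higher and 36 lower in SS tumors by sign, 2 were higher and 2 lower at an unadjusted p under 0.05 in edgeR, beside 6.36% of all genes, and 0 passed adjustment. The groups did not overlap for 5 of them that were higher and 2 that were lower, beside 12.9% of all genes. Their median log2 fold change was -0.01.

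**Figure D5:**
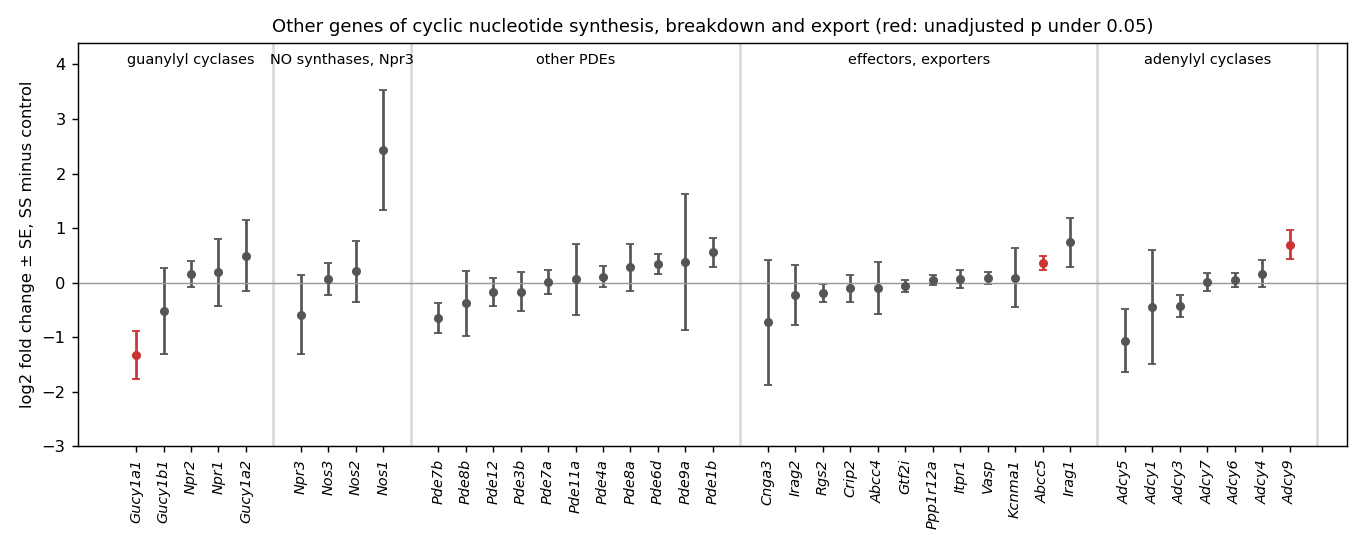
Log2 fold change with its SE, SS minus Control (y axis), of the tested genes of 5 of the pathway lists, 1 point per gene in order of value within a list, red where the unadjusted p was under 0.05. Each list has points on both sides of 0, and the red genes are Gucy1a1, Abcc5 and Adcy9.

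For synthesis of cGMP, 5 guanylyl cyclase genes were tested, 3 higher and 2 lower by sign, with a median log2 fold change of 0.16. Gucy1a1, the alpha subunit of the nitric oxide receptor cyclase, had 31, 48 and 56 counts in Control tumors and 10, 10 and 11 in SS tumors, a mean of 2.37 against 0.949 CPM. All SS tumors lay below all Control tumors. The log2 fold change was -1.32 (SE 0.44, unadjusted p 0.0170, adjusted p 0.771 in edgeR), and it was between -1.51 and -1.16 with each tumor left out. Its unadjusted p was 0.0577 without Control tumor 2, 0.0505 without Control tumor 3 and 0.0600 without SS tumor 1. Gucy1b1, the beta subunit that pairs with it, had 35, 32 and 39 counts in Control tumors and 28, 1 and 22 in SS tumors (log2 fold change -0.53, SE 0.79). Npr2, the receptor cyclase for C-type natriuretic peptide, averaged 72.4 and 81.2 CPM.

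Of the 4 tested genes of nitric oxide synthesis and natriuretic peptides, 3 were higher and 1 lower by sign, and 0 had an unadjusted p under 0.05. Nos1, the neuronal nitric oxide synthase, had 9, 0 and 4 counts in Control tumors and 17, 20 and 10 in SS tumors, which did not overlap (log2 fold change 2.43, SE 1.10, unadjusted p 0.0598 in edgeR). One Control tumor was at 0, so the fold depends on the prior count. It was 3.98 without Control tumor 1 (unadjusted p 0.0120) and 1.79 without Control tumor 2, and the unadjusted p was 0.0455 in DESeq2, 0.0263 in limma-voom and 0.0245 in limma after quantile scaling. Npr3, the clearance receptor for natriuretic peptides, had a log2 fold change of -0.58 (SE 0.72), which was 0.48 without Control tumor 3 and -1.10 without SS tumor 1.

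Of 12 tested genes of cGMP effectors, kinase substrates and exporters, 6 were higher and 6 lower by sign. Abcc5, a transporter that exports cGMP, was at 30.7, 34.5 and 29.9 CPM in Control tumors and 40.3, 38.4 and 43.3 CPM in SS tumors. The groups did not overlap, and the log2 fold change was 0.36 (SE 0.13, unadjusted p 0.0218, adjusted p 0.771 in edgeR). Its unadjusted p was 0.0631 without Control tumor 1, 0.0704 without Control tumor 3 and 0.0719 without SS tumor 3. Vasp, an actin regulator phosphorylated by PRKG1, averaged 122 and 130 CPM.

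Of 11 other phosphodiesterases tested, 7 were higher and 4 lower by sign, 0 had an unadjusted p under 0.05, and the median log2 fold change was 0.06. Pde1b, stimulated by calcium and calmodulin, had the highest value, 0.56 (SE 0.26, unadjusted p 0.0681 in edgeR, 18.3 against 26.9 CPM). It was 0.33 without SS tumor 1 and 0.79 without SS tumor 2 (unadjusted p 0.00754), and its unadjusted p in DESeq2 was 0.0487. Pde7b, a cAMP-specific enzyme, had the lowest, -0.65 (SE 0.28, unadjusted p 0.0527 in edgeR), at 8.80 against 5.58 CPM, and its groups did not overlap. It was -0.39 without Control tumor 1, and its unadjusted p was 0.0371 without Control tumor 3, 0.0456 without SS tumor 1, 0.0460 in edgeR with no filter and 0.0430 in limma after quantile scaling.

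On the cAMP side, 7 adenylyl cyclases were tested, 4 higher and 3 lower by sign. Adcy9, a widely expressed adenylyl cyclase, was at 8.85, 4.87 and 6.36 CPM in Control tumors and 9.51, 11.9 and 11.0 CPM in SS tumors, with no overlap (log2 fold change 0.69, SE 0.27, unadjusted p 0.0331, adjusted p 0.771 in edgeR). Its unadjusted p was 0.0962 without Control tumor 2, 0.0799 without Control tumor 3, 0.0834 without SS tumor 2 and 0.0723 without SS tumor 3. Of 15 tested genes of kinase A, Epac and anchors, 7 were higher and 8 lower by sign and 0 had an unadjusted p under 0.05. The highest was Pkib, an inhibitor of kinase A, at 0.83 (SE 0.49), and the lowest Akap12, an anchoring protein, at -0.92 (SE 0.66). Akap12 was at -1.71 without SS tumor 3 and -0.58 without SS tumor 2. Of 9 tested cAMP-responsive genes, 3 were higher and 6 lower by sign, between -0.64 for Fos (SE 0.51) and 0.43 for Nr4a3 (SE 0.64), and 0 had an unadjusted p under 0.05. Fos, an immediate early gene, was at -1.27 without SS tumor 2 (unadjusted p 0.0329 in edgeR), and at -0.31 without Control tumor 3 or without SS tumor 1. Nr4a3, a nuclear receptor gene induced by cAMP, was at -0.10 without SS tumor 2, 0.91 without SS tumor 3 and -0.016 in limma-voom with sample weights.

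Of 8 tested genes of beta-catenin and its targets, 2 were higher and 6 lower by sign, with a median log2 fold change of -0.44. Tcf7, a transcription factor of the pathway that is also a T-cell gene, was at 37.2, 15.6 and 8.37 CPM in Control tumors and 10.0, 7.75 and 6.25 CPM in SS tumors. Control tumor 1 was highest and the groups overlapped. The log2 fold change was -1.34 (SE 0.51, unadjusted p 0.0316, adjusted p 0.771 in edgeR), but -0.58 without Control tumor 1 (unadjusted p 0.135). The unadjusted p was also 0.0775 without SS tumor 2, 0.101 without SS tumor 3 and 0.0919 in limma-voom with sample weights. It was lower, at 0.0042, in DESeq2 and 0.0143 in edgeR with replicate number as a block. Without Control tumor 3 it was 0.00372 in edgeR, at a log2 fold change of -1.71. Over all alternatives the adjusted p of Tcf7 was between 0.219 and 0.960. Summed T-cell markers, 2 of 7 of which were in the table, were at 8.04 to 47.8 CPM in Control tumors and 4.31 to 20.8 CPM in SS tumors, and their part in the Tcf7 values was not tested. Ctnnb1, which encodes beta-catenin, averaged 1082 and 959 CPM (log2 fold change -0.17, SE 0.15).

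Summed markers of endothelium and platelets, cells that use these enzymes, overlapped between the groups. Endothelial markers, 9 of 11 of which were in the table, summed to 134.2, 115.8 and 84.0 CPM in Control tumors and 112.5, 204.2 and 118.9 CPM in SS tumors. Of the 8 endothelial markers tested, 6 were higher and 2 lower by sign, with a median log2 fold change of 0.33, and 2 did not overlap between groups, both at an unadjusted p under 0.05, beside 12.9% and 6.36% of all genes. These were Vwf, von Willebrand factor, at 18.5, 6.44 and 9.19 CPM in Control tumors and 22.6, 35.8 and 19.7 CPM in SS tumors (log2 fold change 1.20, SE 0.41, unadjusted p 0.0191, adjusted p 0.771 in edgeR), and Esam, a junction protein. Esam averaged 8.80 and 13.2 CPM (log2 fold change 0.58, SE 0.23, unadjusted p 0.0356, adjusted p 0.771 in edgeR). Cdh5, the cadherin of endothelial junctions, was at 22.2 to 47.5 CPM, and Pecam1 had 0 to 10 counts per tumor and was not tested. The endothelial sum was highest in SS tumor 2, which was also highest for Pde5a, Pde3a, Pde4b, Pde4d and Prkg1. Summed markers of skeletal muscle, mural cells, fibroblasts and mammary tumor cells were highest there too. Without Des the mural sum was instead highest in Control tumor 2, at 1095 against 1065 CPM in SS tumor 2. Fibroblast sums were close in SS tumor 2 and Control tumor 2, at 15190 and 15150 CPM. Vim, vimentin, made up 8620 of the 9450 CPM of mammary tumor markers in SS tumor 2. Of the other markers in that list some were highest there and some not, and Krt18, a keratin, was lowest there. Platelet markers were at 5.46 to 6.03 CPM in Control tumors and 2.90 to 7.52 CPM in SS tumors. SS tumor 2 had the lowest total count. The part of these cell types or of depth in the members' values was not tested.

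The genes whose log2 CPM ran most like each member over the 6 tumors were, by Pearson's r, Zfp184, Tmtc1 and Wnt4 for Pde5a, Samd4b, Usp10 and Etv5 for Pde2a, and Dctn1, Sesn3 and Myo7a for Pde10a. For Pde3a they were Fscn1 and Fgf7, for Pde4b Tapt1, Fam168a and Dcn, and for Pde4d Neat1, Bfar and Tmem238. For Prkg1 they were Ints12, Lmod2 and Trim63, and for Prkg2 Hoxa7, Sec24d and Wisp1. The highest r for a member was between 0.984 and 0.996, and 11 to 31 genes per member had r above 0.95. With 6 points that share library and scaling among 10902 genes, these are descriptions only.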

How the data were processed

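RNA of 6 C0321 tumors was sequenced by the study from stranded polyadenylated libraries, with paired reads of 75 nucleotides. The deposited table holds the authors' estimated counts of 20648 RefSeq transcripts without normalization, after removing entries of very low count (the lowest sum over the tumors was 10). The submitters' processing notes name the build mm10, CASAVA 1.8.1, Bowtie2 2.2.5 and STAR 2.5.3a. The counting tool and its strand setting are not given in the sources used here. Expected counts were summed by gene symbol, rounded and, for 21 date-like symbols, renamed by transcript accession. Groups came from the sample labels. Groups were compared with edgeR 4.0.16 under R 4.3.3, by its quasi-likelihood test after TMM scaling and a low-count filter, with Benjamini-Hochberg adjustment (10902 genes). SE is the size of a log2 fold change over the root of F. Alternatives used DESeq2 1.42.0 and limma 3.58.1, and exact permutation tests scipy 1.17.1. Isoform shares needed 10 counts per tumor. Transcript lengths are those of GENCODE M21 matched by accession. Scripts were tested on simulated data. The tumors are from different mice.

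All members are named with their values, and from each pathway list every gene at an unadjusted p under 0.05 or, without one, the highest and lowest, with the 3 genes most correlated with each member (1 of these is not reported here). Gucy1b1, Npr2, Vasp, Ctnnb1, Pde7a, Vwf, Esam, Cdh5, Pecam1, Des, Acta2, Pdgfrb, Kcnj8 and Abcc9 were named after their values were seen. So were Cspg4, Lmod1, Col1a1, Col3a1, Pdgfra, Dpt, Lum, Vim and Krt18. The members and lists were chosen with earlier results of these data known.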

Additional observations from a re-analysis of the deposited data

How the results depend on the processing

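Pde5a and Pde2a stayed lower and Pde4d and Prkg1 higher in SS tumors under every scaling, filter and test tried (RLE, upper-quartile and quantile scaling, no filter or a CPM filter, DESeq2, limma-voom, the replicate block) and with each tumor left out. For all genes, DESeq2 passed 35 genes after adjustment in place of 0. The count of members at an unadjusted p under 0.05 was 0 under upper-quartile scaling, DESeq2 and the replicate block, and 0 to 1 with a tumor left out. Members lower in SS tumors numbered 5 under limma-voom and the replicate block, and 2 to 5 with a tumor left out. Signs turned for Pde4b under quantile scaling with limma (-0.021), limma-voom (-0.00022) and the replicate block (-0.0016), for Pde10a under limma-voom (-0.066) and the block (-0.0067), and for Nr4a3 under limma-voom (-0.016). With a tumor left out, log2 fold changes ran from -0.65 to 0.35 for Pde10a, -0.29 to 0.19 for Pde4b, -0.35 to 0.10 for Prkg2, -0.17 to 0.40 for Pde3a, -1.10 to 0.48 for Npr3, -1.27 to -0.31 for Fos and -0.10 to 0.91 for Nr4a3, and all genes at an unadjusted p under 0.05 numbered 520 to 877. The leading transcript's share differed by -25.4 to 14.9 percentage points for Pde10a, -1.33 to 1.82 for Prkg1 and 1.75 to 10.6 for Pde2a. A minimum of 20 counts per tumor left no share for Pde10a. The cause of these changes was not tested. Same-numbered tumors came from different mice, and correlations of their residuals about each group mean were 0.116, 0.0205 and 0.0767. Tumors of unlike number were not compared in this way, so these values cannot tell whether same-numbered tumors shared a batch. The block gave 643 genes at an unadjusted p under 0.05 against 693, with Pde7b at 0.0447 and Adcy9 at 0.0555. Counting error was largest for Pde10a and Pde3a, with CVs of 11.1% to 31.6% and 11.8% to 16.9% per tumor, below the CVs of 48.2% and 40.8% between Control tumors.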
